A study of Homo sapiens with 6 samples.

Results

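The TRIM (tripartite motif) genes described here are those whose symbol is TRIM followed by a number and at most 1 letter, each read from the probe set that carries only that symbol and has the highest mean over the 6 arrays. They number 54 of 18417 genes with a probe set of their own, and the current RefSeq gene table gives all 54 the same symbol. The rule uses symbols and, between probe sets of 1 gene, brightness over both groups together, and no difference between the groups. A further 15 TRIM symbols stand only on probe sets shared with another symbol and are not among the 54.

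The cells were MDA-MB-231, an established line of human breast cancer that is triple negative (without the estrogen and progesterone receptors and ERBB2 amplification). They were exposed to 500 nM EC-70124, a kinase inhibitor, for 24 h (3 independent samples) or left untreated as control (3 independent samples). Both groups were grown in DMEM with 10% FBS, and the labels name no vehicle for the control cells. The results therefore describe 1 cell line at 1 dose and 1 time. RNA from each sample was hybridised to 1 Affymetrix Human Gene ST array, and each probe set has 1 model-based expression index, a linear intensity normalised by the authors.

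TRIM proteins are built from a RING finger, 1 or more B-box zinc fingers and a coiled coil, followed by a C-terminal domain that differs between members and by which the family is divided into classes C-I to C-XI. The RING finger recruits a ubiquitin-conjugating E2 enzyme, so most members act as E3 ligases that attach ubiquitin to a substrate bound by the C-terminal domain. Several members are induced by interferon and act in antiviral defence, and others regulate transcription, muscle protein turnover, the cytoskeleton or autophagy.

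Median intensity over the 33252 probe sets was 450.65 to 460.11 in the EC-70124 arrays and 437.16 to 444.055 in the control arrays. Correlations of log2 intensity, across probe sets, were 0.990 to 0.993 between arrays of 1 group and 0.979 to 0.984 between groups. Of the markers of the labelled line, VIM (vimentin) read 12836.6 to 13304.6 in the EC-70124 arrays and 13703.3 to 13991 in the control arrays. The hormone receptor genes ESR1 and PGR read 182.94 to 233.15 and 149.32 to 163.05 in the EC-70124 arrays, and 217.30 to 229.55 and 151.36 to 176.13 in the control arrays. ERBB2 read 1484.27 to 1566.34 in the EC-70124 arrays and 1441.94 to 1555.84 in the control arrays. KRT8 (keratin 8) read 6892.93 to 7660.79 in the EC-70124 arrays and 6218.03 to 6611.81 in the control arrays. Of 11 markers of the line 3 rose and 3 fell, with KRT18 (keratin 18) at a log2 fold change of 0.77 and ITGA6 (integrin α6) at -1.21. Among 10 leukocyte and endothelial markers 0 rose and 1 fell (CD68, -0.33), and among 10 striated muscle markers 0 rose and 0 fell, by limma with Benjamini-Hochberg adjustment over all genes at a threshold of 0.05. At an unadjusted p under 0.05, 1 marker rose and 1 fell in each of these lists, and the methods' t-test, after adjustment, called 0 in both. The table carries no measure of background, so a dim probe set cannot be told from background, and intensities of different genes are not comparable with each other. Each value is an average over a plate of cells, in which more expressing cells and more RNA per cell cannot be told apart.

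EC-70124 treatment was followed by a rise of 14 of the 54 TRIM genes and a fall of 4, by the same limma test. TRIM61 rose 2.81-fold, and the other 13 genes rose by less, with TRIM26, TRIM21 and TRIM66 at 1.85-fold, 1.73-fold and 1.68-fold. TRIM14, an adaptor of antiviral signalling, had the largest fall of the 4, with a log2 fold change of -0.40. The remaining 36 genes did not pass the threshold, 15 with a log2 fold change above 0 and 21 below, between -0.17 and 0.22.

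These shares stand beside those of all genes tested, of which 19.7% rose, 14.8% fell and 34.5% did either. Among TRIM genes 25.9% rose, 7.41% fell and 33.3% did either, so the share of TRIM genes called in either direction was close to that of all genes. The median log2 fold change was 0.062 over the 54 TRIM genes and -0.0045 over all genes. Every EC-70124 array was above every control array for 21 TRIM genes (38.9%, against 25.6% of all genes), and below for 6 (11.1%, against 22.0% of all genes). Of the 18 called TRIM genes 0 had overlapping groups, and 9 genes that did not pass also had groups that did not overlap. This split by call is not given for all genes, so whether it is particular to the TRIM genes cannot be told. Only TRIM61 changed at least 2-fold, a size that 2.71% of all genes reached. With 3 arrays a group the standard error of the log2 fold change was 0.05 to 0.16 over the 54 genes, with a median of 0.07. The median moved with the choice of processing and of arrays, between 0.0042 without the third control array and 0.13 without the dimmest 30% of genes.

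**Figure D1:**
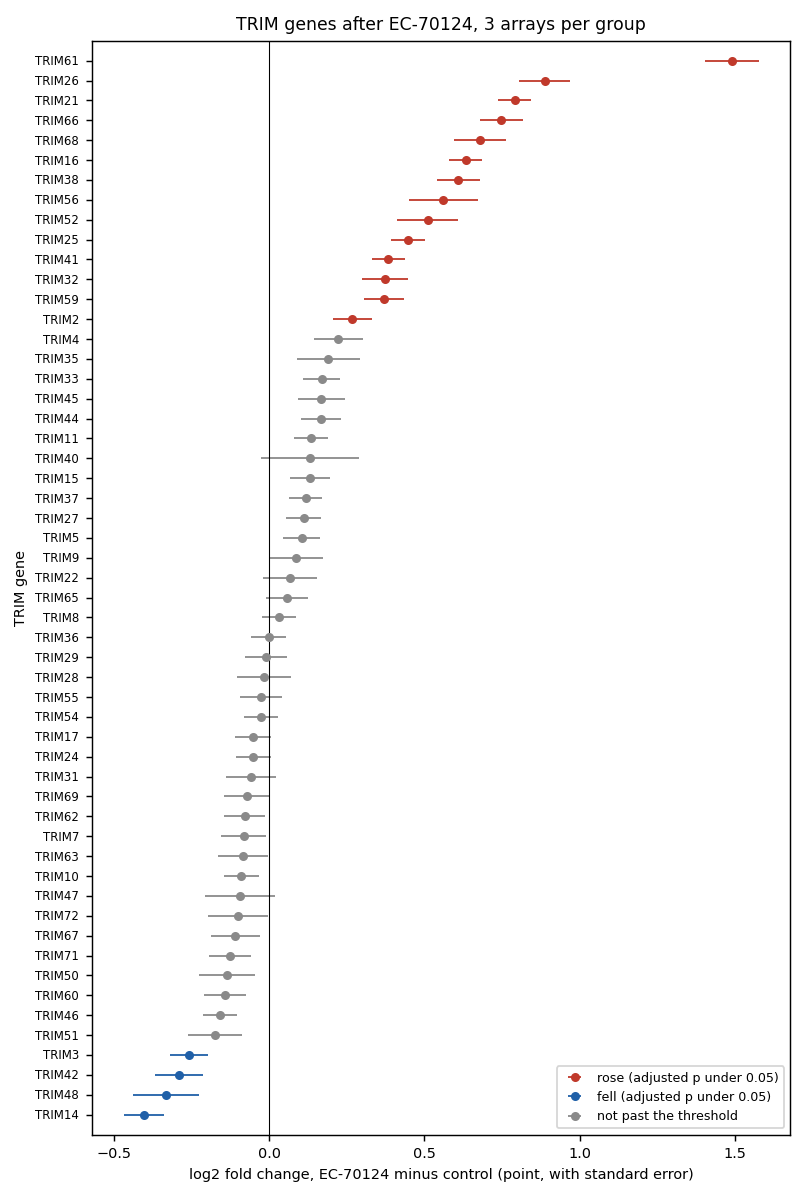
Log2 fold change (EC-70124 minus control, horizontal axis) of each of the 54 TRIM genes, ordered by size, with bars of 1 standard error from limma and colours for genes that rose, fell or did not pass the threshold. TRIM61 stands apart at 1.49, 13 further genes that rose lie between 0.27 and 0.89, and the 4 that fell lie between -0.40 and -0.26.

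TRIM61 showed the largest change of the family. Its intensity was 2133, 2161 and 2387 in the EC-70124 arrays, against 710.4, 798 and 875 in the control arrays, so the lowest treated array was far above the highest control array. The log2 fold change was 1.49 ± 0.09 (SE, n = 3 each, limma adjusted p = 1.34e-05). It was the only call of the family that held in limma's treat test, which asks whether a change is beyond 1.5-fold given its error. TRIM26, TRIM21, TRIM66, TRIM68, TRIM16 and TRIM38 had measured changes of 1.53-fold to 1.85-fold and did not pass that test.

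TRIM26, a ligase of antiviral signalling encoded in the major histocompatibility region, read 1689, 1587 and 1958 in the EC-70124 arrays and 928, 968 and 924 in the control arrays. This gave a log2 fold change of 0.89 ± 0.08 (limma adjusted p = 0.0001), and its other probe set gave 0.87. TRIM21, the cytosolic antibody receptor also known as the Ro52 autoantigen, read 1890.25, 1908 and 1795 in treated arrays and 1081, 1072 and 1079 in control arrays. Its control arrays were almost equal, and the log2 fold change was 0.79 ± 0.05 (limma adjusted p = 2.3e-05).

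TRIM66, a chromatin reader with a PHD finger and a bromodomain, had intensities of 508, 459.87 and 477 in EC-70124 cells and 290.35, 304 and 267 in control cells. Its log2 fold change was 0.75 ± 0.07 (limma adjusted p = 0.000105). TRIM68, a ligase that acts on the androgen receptor, read 1661, 1768 and 1446 in EC-70124 cells and 1023, 1065 and 949 in control cells. All treated arrays were higher, with a log2 fold change of 0.68 ± 0.09 (limma adjusted p = 0.000477). TRIM16, which takes part in the autophagic removal of damaged membranes, read 4999, 4898 and 5014 in EC-70124 cells and 3111, 3293 and 3212 in control cells. The spread within each group was small beside this difference, and the log2 fold change was 0.63 ± 0.05 (limma adjusted p = 5.97e-05).

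**Figure D2:**
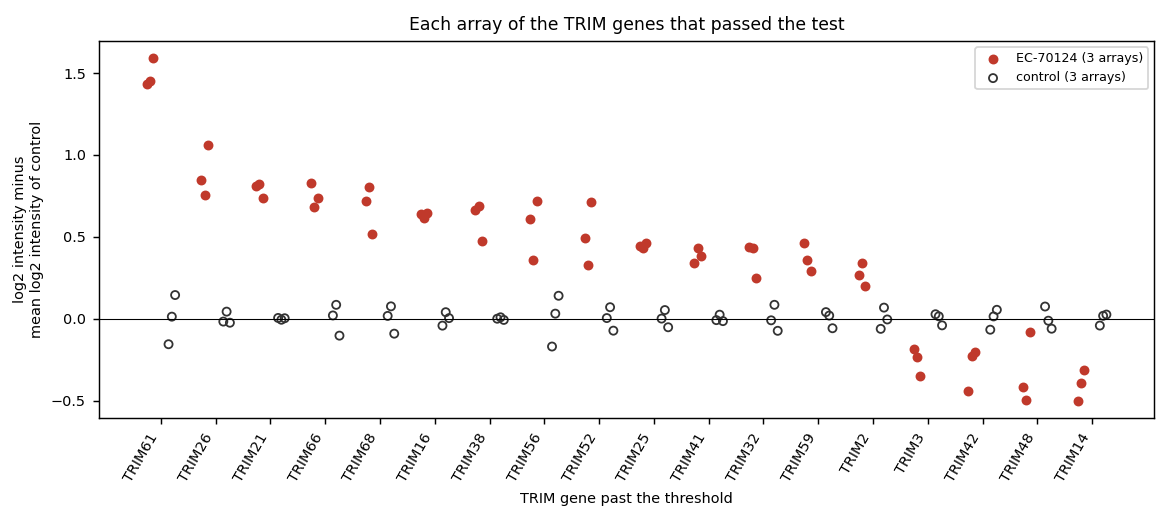
Log2 intensity in each array minus the mean log2 intensity of the control arrays (vertical axis) for the 18 TRIM genes past the threshold (horizontal axis), with filled points for the 3 EC-70124 arrays left of open points for the 3 control arrays. For every gene the groups are separate, with the widest gap for TRIM61 (2227 ± 139 in EC-70124 cells and 794.5 ± 82.3 in control cells, mean intensity ± SD, n = 3 each) and a narrow one for TRIM48.

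TRIM25, TRIM41 and TRIM59 rose with small spread. TRIM25, which ubiquitinates the RNA sensor RIG-I, read 4973, 4936 and 5044 in the EC-70124 arrays and 3655, 3789 and 3523 in the control arrays, a log2 fold change of 0.45 ± 0.05 (limma adjusted p = 0.000385). TRIM41, a ligase for protein kinase C, read 1641, 1748 and 1696 in the EC-70124 arrays and 1291, 1321 and 1285 in the control arrays, a log2 fold change of 0.38 ± 0.05 (limma adjusted p = 0.000801). TRIM59, which is anchored in membranes, read 1184, 1104 and 1050.49 in the EC-70124 arrays and 884, 871 and 826 in the control arrays, a log2 fold change of 0.37 ± 0.06 (limma adjusted p = 0.00257). In each of these the lowest treated array lay above the highest control array.

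Another 4 rises were called by limma but not by the methods' t-test as applied here to single genes. That test estimates the spread of each gene from its own 3 arrays a group. TRIM38, which restrains Toll-like receptor and TNF signalling, read 4304, 4379.56 and 3774 in EC-70124 cells and 2716, 2732 and 2702 in control cells, with a log2 fold change of 0.61 ± 0.07 (limma adjusted p = 0.000274). TRIM56, a ligase that acts on STING, read 1936, 1628 and 2089.94 in EC-70124 cells and 1129, 1298 and 1400.07 in control cells, with a log2 fold change of 0.56 ± 0.11 (limma adjusted p = 0.0049). TRIM52 read 562, 503 and 656 in EC-70124 cells and 401, 420.19 and 380.48 in control cells, with a log2 fold change of 0.51 ± 0.10 (limma adjusted p = 0.00421). The fourth, TRIM32, is described with its class.

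Of the 10 TRIM genes listed as interferon-inducible, 9 had a probe set of their own. TRIM26, TRIM21, TRIM38, TRIM56 and TRIM25 rose, TRIM14 fell and TRIM5, TRIM22 and TRIM69 did not pass, with a median log2 fold change of 0.45 beside -0.0045 for all genes, of which 19.7% rose and 14.8% fell. Under the methods' t-test 3 of these rises and no fall were called.

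TRIM14, which lacks the RING finger and works as a mitochondrial adaptor of the signalling protein MAVS, read 1041, 1122 and 1186 in the EC-70124 arrays and 1433, 1493 and 1501 in the control arrays. Its log2 fold change of -0.40 ± 0.06 (limma adjusted p = 0.00162) ran against that of the other called genes of this list, and it was not called by the methods' t-test. TRIM5, which restricts retroviruses by binding the incoming capsid, read 1919.85, 2112 and 1987 in the EC-70124 arrays and 1869.95, 1812 and 1912 in the control arrays, and its log2 fold change of 0.10 did not pass (limma adjusted p = 0.221). TRIM22, an antiviral ligase, was dim in every array, at 135, 131 and 118 in EC-70124 cells and 129, 129 and 108 in control cells. Its groups overlapped (0.07, limma adjusted p = 0.614), and so did those of TRIM69 (-0.07, limma adjusted p = 0.501).

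The promoters of these genes were searched for the core letters of the interferon-stimulated response element, GAAA, any 2 bases and GAAA again, the sequence bound by the interferon-activated factors. RefSeq promoters (GRCh38.p14, 250 bases before to 50 after the start, both strands searched) were given for 42 of the 54 TRIM genes. The letters occur in 3.57% of the 35116 promoters in all and in 8 of the 57 TRIM promoters (14.0%), which belong to TRIM2, TRIM5, TRIM14, TRIM16, TRIM21, TRIM26, TRIM44 and TRIM69. Of these genes 4 rose, 1 fell and 3 did not pass, where 19.7% of all genes rose and 14.8% fell. Shown here are the matches of the interferon-inducible members, 5 of 8 with a promoter. Those of TRIM2 and TRIM16, which rose, and of TRIM44, which did not pass, are not shown. The sequences run 5′ to 3′ in the direction of the gene, with the matching letters in capitals (TTTC, any 2 bases and TTTC is the same element on the other strand).
TRIM26: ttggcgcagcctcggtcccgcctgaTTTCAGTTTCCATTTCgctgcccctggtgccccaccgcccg
TRIM21: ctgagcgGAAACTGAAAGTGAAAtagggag
TRIM14: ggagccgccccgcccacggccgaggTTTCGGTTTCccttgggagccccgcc
TRIM5: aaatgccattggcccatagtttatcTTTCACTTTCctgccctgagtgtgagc
TRIM69: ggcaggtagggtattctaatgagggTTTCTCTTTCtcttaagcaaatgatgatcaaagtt

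The TRIM26 stretch (chr6:30213560-30213625, minus strand) holds 2 overlapping matches, and so does that of TRIM21 (chr11:4393663-4393692, minus strand), where they lie just after the start. The matches of TRIM14 (chr9:98119223-98119273, minus strand), TRIM5 (chr11:5685075-5685126, minus strand) and TRIM69 (chr15:44736441-44736500, plus strand) are single and lie before the start. TRIM26 and TRIM21 rose, TRIM14 fell, and TRIM5 and TRIM69 did not pass. Whether the letters bear on these changes was not tested. The letters TGATGNAA of the ATF4 element were found in 4 of the 57 TRIM promoters (7.02%, against 3.62% of all) and those of the antioxidant response element, TGACNNNGC, in 7 (12.3%, against 13.3% of all). A match of letters is a description of the sequence and not a measured binding site.

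Interferon-stimulated genes outside the family gave falls and no rise. Of 18 such genes 0 rose and 5 fell by limma, with a median log2 fold change of -0.06, while 19.7% of all genes rose and 14.8% fell. At an unadjusted p under 0.05, 1 was higher and 6 were lower, and the methods' t-test called 0 rises and 1 fall. IFIT1, an RNA-binding antiviral protein, read 578, 530.04 and 401 in the EC-70124 arrays and 989, 998 and 968 in the control arrays, and fell by 0.99 ± 0.12 on the log2 scale (limma adjusted p = 0.000468). OASL, OAS1 and IFI44, also interferon-induced antiviral genes, had log2 fold changes of -0.81, -0.79 and -0.52, and the third EC-70124 array was the lowest of its group for each of them, as it was for IFIT1. The remaining fall was that of USP18, the protease that removes ISG15, at -0.32. The letters of the response element were present for 11 of the 13 listed interferon-stimulated genes with a promoter.

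Genes on which TRIM ligases act in antiviral signalling, among them sensors, adaptors and kinases, were higher after EC-70124 in most cases, though several sensors did not pass. Of 19 genes measured 13 rose and 1 fell, with a median log2 fold change of 0.27, while 19.7% of all genes rose. The methods' t-test called 8 rises and no fall. IKBKE, a kinase of the interferon response, read 1907, 1877 and 1779.81 in the EC-70124 arrays and 924, 968 and 902 in the control arrays, a log2 fold change of 0.99 ± 0.06 (limma adjusted p = 1.34e-05). TLR3, a receptor for double-stranded RNA, TRAF6, a signalling ligase, and TAB2, a subunit of the TAK1 kinase complex and a known target of TRIM38, rose by 0.58, 0.51 and 0.44. ZC3HAV1, the zinc finger antiviral protein and a substrate of TRIM25, fell by 0.34. RIG-I itself, the target of TRIM25, did not pass (0.03 ± 0.10, limma adjusted p = 0.83). Nor did the sensors IFIH1 and DHX58 (0.18 and -0.19) or the adaptors MAVS and TICAM1 (0.16 and -0.15).

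**Figure D3:**
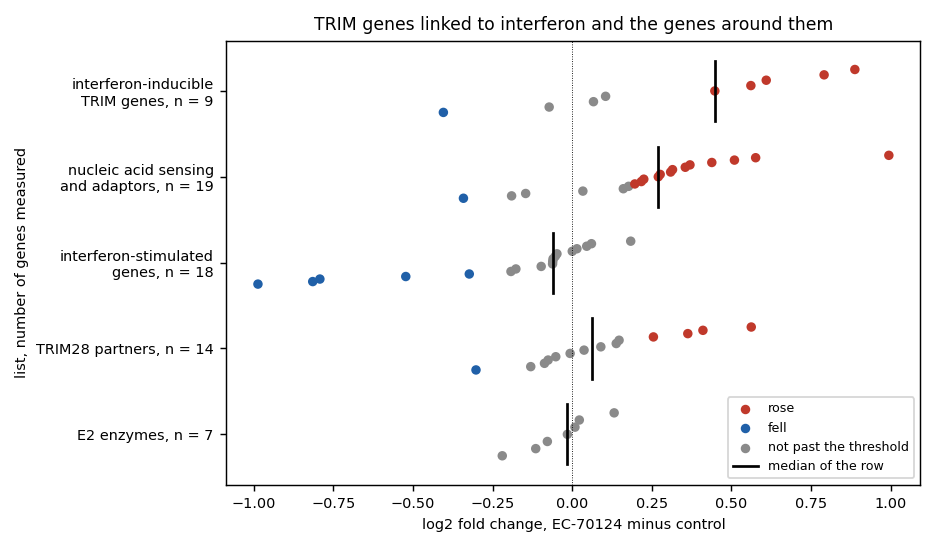
Log2 fold change (EC-70124 minus control, horizontal axis) of each gene in 5 lists, from the interferon-inducible TRIM genes at the top to the E2 enzymes at the bottom, with colours for genes that rose, fell or did not pass the threshold and a vertical bar at the median of each list. The medians of the interferon-inducible TRIM genes, the sensing genes and the interferon-stimulated genes are 0.45, 0.27 and -0.06, and the genes that fell furthest, IFIT1, OASL and OAS1, are in the third list.

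By structure, the largest class, C-IV, carries a PRY-SPRY domain that binds protein partners. It had 25 genes with a probe set of their own among 42 listed. TRIM26, TRIM21, TRIM68, TRIM38, TRIM25 and TRIM41 rose and TRIM48 fell, with a median log2 fold change of 0.07. Over all genes 19.7% rose and 14.8% fell. TRIM48 was dim, at 125, 118 and 157 in EC-70124 cells and 175, 165 and 159.52 in control cells, and its call (-0.33 ± 0.11, limma adjusted p = 0.0429) was lost without any single array other than the third EC-70124 array (limma adjusted p of up to 0.136). TRIM48 has near-identical copies in the genome, 2 of which share another probe set with it, so its signal may not be its own. The shared probe set ran the other way, at a log2 fold change of 0.23 ± 0.20 (limma adjusted p = 0.49). The methods' t-test did not call TRIM48.

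Class C-V, whose members have a RING finger and B-box but no known C-terminal domain, had 6 measured genes and a median of 0.32. TRIM61, TRIM56 and TRIM52 rose, and TRIM8, TRIM31 and TRIM40 did not pass, where 19.7% of all genes rose and 14.8% fell. TRIM40 was the least precisely measured gene of the family, with a log2 fold change of 0.13 ± 0.16.

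**Figure D4:**
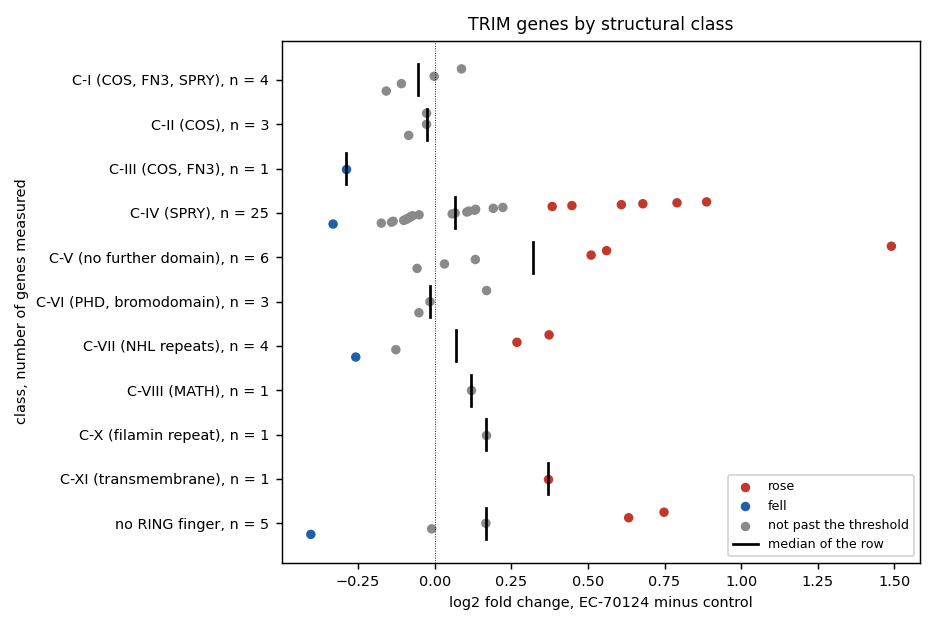
Log2 fold change (EC-70124 minus control) of the 54 TRIM genes by structural class, 1 point a gene, with a line at the class median and colours for genes that rose, fell or did not pass the threshold. Of the 14 rises 6 are among the 25 genes of C-IV and 3 among the 6 of C-V. The 10 genes of C-I, C-II and C-VI lie between -0.16 and 0.17 with no call. TRIM66, which also carries a PHD finger and a bromodomain, is in the row without a RING finger. Over all genes 19.7% rose and 14.8% fell.

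Genes of class C-VI, which carry a PHD finger and a bromodomain and act on chromatin, did not pass the threshold. TRIM66, which also carries both domains, rose (0.75) but is listed here with the members without a RING finger. TRIM28, the corepressor recruited by KRAB zinc finger proteins, read 4732, 4621 and 5721 in the EC-70124 arrays and 4867, 5173 and 5132 in the control arrays (-0.02 ± 0.09, limma adjusted p = 0.918). The groups overlapped, and the sign changed with the arrays left out. TRIM24, a histone reader and ligase of p53, read 2116, 2231 and 2178 in the EC-70124 arrays and 2169, 2347 and 2249 in the control arrays (-0.05, limma adjusted p = 0.542). TRIM33, a ligase of SMAD4, read 6266, 6392 and 5798 in the EC-70124 arrays and 5313, 5471 and 5620.42 in the control arrays. Its groups did not overlap, and its log2 fold change of 0.17 ± 0.06 missed the threshold (limma adjusted p = 0.0625), which it passed under 4 other settings. At an unadjusted p under 0.05 TRIM33 was the 1 gene of this class called, and the methods' t-test called 0.

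Genes that work with class C-VI were mixed. Of 14 partners of TRIM28 in gene silencing 4 rose and 1 fell, with a median of 0.06, where 19.7% and 14.8% of all genes did so. MORC3, a chromatin ATPase, SMARCAD1, a nucleosome remodeller, CBX5, the heterochromatin protein HP1α, and MTA2, a subunit of the NuRD deacetylase complex, had log2 fold changes of 0.56, 0.41, 0.36 and 0.26. HDAC2, a histone deacetylase of the same complex, had -0.30. SETDB1, the histone methyltransferase recruited by TRIM28, did not pass (0.14 ± 0.06, limma adjusted p = 0.139). Among 5 measured partners in SMAD and p53 signalling, SMAD2 rose (0.24) and SMAD3 and the histone demethylase KDM1A fell (-0.48 and -0.31). The rise of SMAD2 was lost when the median over its probe sets was used (0.07, limma adjusted p = 0.605) and without 4 of the 6 arrays in turn.

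Class C-VII, whose NHL repeats bind RNA or protein, changed in both directions. Of its 4 genes 2 rose and 1 fell, while 19.7% of all genes rose and 14.8% fell. TRIM32, mutated in a limb-girdle muscular dystrophy, read 2250.55, 2250.25 and 1981 in the EC-70124 arrays and 1653, 1766 and 1582 in the control arrays (0.37 ± 0.07, limma adjusted p = 0.00475). TRIM2, which ubiquitinates neurofilament light chain in mice, read 1313, 1378 and 1250.33 in the EC-70124 arrays and 1044, 1142 and 1086 in the control arrays (0.27 ± 0.06, limma adjusted p = 0.0109). TRIM3, a candidate tumour suppressor of the brain, was lower, at 449, 435 and 400.28 in the EC-70124 arrays and 521, 516 and 497 in the control arrays (-0.26 ± 0.06, limma adjusted p = 0.0127). Both TRIM2 and TRIM3 lost their call without the first control array (limma adjusted p = 0.0511 and 0.0535), and TRIM32 and TRIM3 lost it under the methods' t-test. TRIM71, a stem cell regulator and target of let-7, read 539, 464 and 497 in EC-70124 cells and 556, 534 and 546 in control cells, and did not pass (-0.13, limma adjusted p = 0.197).

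Members without a RING finger numbered 5, with a median log2 fold change of 0.17. TRIM66 and TRIM16 rose, TRIM14 fell, and TRIM29 and TRIM44 did not pass, where 19.7% of all genes rose and 14.8% fell. TRIM44 had groups that did not overlap and a log2 fold change of 0.17 (limma adjusted p = 0.0766).

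The single gene of class C-III, TRIM42, was dim and fell, at 153, 178 and 180.18 in EC-70124 cells and 198, 209.71 and 216 in control cells (-0.29 ± 0.08, limma adjusted p = 0.0187). The call was lost without the second or the third control array (limma adjusted p = 0.0613 and 0.0652) and under the methods' t-test. Genes of class C-I with a TRIM symbol, which bind microtubules, gave 0 calls among 4, with a median of -0.06. Over all genes 34.5% were called. The lowest p of these 4 belonged to TRIM46, which organises microtubules of the axon. It read 355, 344 and 364 in EC-70124 cells and 400.07, 385 and 401 in control cells (-0.16 ± 0.05, limma adjusted p = 0.0529). It was called as a fall under 5 alternative settings, the methods' t-test among them. Of the 4 it was the 1 gene at an unadjusted p under 0.05. The microtubule-bound family member MID1 and its relative MID2 carry other symbols and are not among the 4. MID1 fell (-0.36), and MID2 did not pass (-0.21).

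The muscle ligases of class C-II gave 0 calls among 3 (0 at an unadjusted p under 0.05 and 0 by the methods' t-test), with TRIM63, a ligase of muscle atrophy, at -0.09 (limma adjusted p = 0.478). TRIM37, a centrosomal ligase mutated in mulibrey nanism and the gene of class C-VIII, was higher in each EC-70124 array than in any control array, by 0.12 on the log2 scale (limma adjusted p = 0.134). TRIM45 of class C-X had 0.17 (limma adjusted p = 0.133).

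Family members that carry other symbols were also measured. TRIML2 rose by 0.58 ± 0.07 (limma adjusted p = 0.00037), with 1225, 1214 and 1058 in the EC-70124 arrays and 779, 789.53 and 761 in the control arrays. PML, the organiser of nuclear bodies, and MID1, a microtubule-bound ligase mutated in Opitz syndrome, had log2 fold changes of -0.38 and -0.36 (limma adjusted p = 0.000981 and 0.00119). MID2, MEFV and TRIML1 did not pass, where 19.7% of all genes rose and 14.8% fell.

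Of 13 listed E2 enzymes that donate ubiquitin to TRIM ligases, 7 had a probe set of their own. These gave 0 calls, also at an unadjusted p under 0.05 and by the methods' t-test. UBE2D1, UBE2D2, UBE2D3, UBE2E3, UBE2W and UBE2L3 had none, so the list is only partly covered. The median of the 7 measured genes was -0.01, and the lowest p was that of UBE2D4 (0.13, limma adjusted p = 0.191). Over all genes 34.5% were called by limma.

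TRIM genes lie next to each other at several places in the genome, and neighbours did not always have the same call. In RefSeq order 10 pairs of measured TRIM genes have at most 3 coding genes between them. TRIM genes found only on shared probe sets, such as TRIM39, are not in these pairs. Both genes rose in 1 pair, TRIM52 and TRIM41 on chromosome 5, 1 gene rose in 3 pairs, and neither rose in 6. TRIM61 exceeded its neighbour TRIM60 on chromosome 4 by 1.63 in log2 fold change, where TRIM60 read 330.13, 307 and 304 in EC-70124 cells and 327, 340.17 and 371 in control cells. TRIM26 exceeded TRIM15 on chromosome 6 by 0.76, and TRIM41 exceeded TRIM7 by 0.47. The exact two-sided permutation test of the difference gave p = 0.1 for these pairs, the smallest that 3 arrays a group allow, and 0.2 after adjustment over the 10 pairs. With so few arrays this test could not call any pair, so it does not decide whether neighbours differ.

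In all, 7 genes had more than 1 probe set of their own (TRIM10, TRIM15, TRIM26, TRIM27, TRIM31, TRIM40 and TRIM51), and in 0 of them did the probe sets differ in call or in the sign of the change. For 2 of them, TRIM15 and TRIM27, the probe sets hold identical values in every array, so only the other 5 give a second reading, and in TRIM10, TRIM40 and TRIM51 some of the probe sets are copies as well. TRIM16 shares most of its sequence with TRIM16L, and a probe set assigned to both rose by 0.62 (limma adjusted p = 0.00116 over all 33252 probe sets, of which 22.1% were called in either direction), beside 0.63 for the probe set assigned to TRIM16 alone.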

How the data were processed

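MDA-MB-231 cells were profiled on 6 Affymetrix Human Gene ST arrays, 3 per group. The authors normalised all arrays in dChip with a pair-wise rank invariant method and deposited, for each probe set, its model-based index, a linear intensity that is not centred. No dChip version, background step, scan date or batch is given in the sources used here.

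Intensities were set to at least 1 (69 to 98 of 33252 values per array lay at or below it, none of a TRIM gene) and taken as log2. The platform annotation gave 1 symbol to 19460 probe sets, several to 1754 and none to 12038, and symbols were compared with RefSeq through the Entrez identifier. Only probe sets with 1 symbol entered the gene table, and 769 of the 18417 genes have more than 1, of which the brightest was used. The groups were compared with limma 3.58.1 (lmFit, eBayes; R 4.3.3) over all genes, with Benjamini-Hochberg adjustment at 0.05, after a test on simulated data. The number of arrays limits the precision. Motifs were searched in RefSeq promoters of GRCh38.p14.

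The members and lists were chosen with earlier results of these data known. Named are the TRIM genes past the threshold, the gene with the lowest p of each class, all genes of classes C-VI and C-VII and of the interferon-inducible list, genes whose probe sets disagree, and from each other list up to 4 called genes of largest change, or that with the lowest p. RIG-I, IFIH1, DHX58, MAVS, TICAM1, SETDB1, MTA2, ZC3HAV1, USP18, VIM, ESR1, PGR, ERBB2, KRT8, TRIM40, the neighbours of TRIM genes and genes given only as not passing were named after their values were seen. Alternatives covered quantile and cyclic loess normalisation, leaving out the dimmest 30% of genes, an offset of 50, the median of a gene's probe sets, robust eBayes with an intensity trend, the methods' t-test, treat against 1.5-fold, a replicate block and leaving out each array. The fold threshold is that of treat, which tests whether a change is beyond 1.5-fold given its error. Probe sets with several TRIM symbols were left out of the gene table.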

Additional observations from a re-analysis of the deposited data

Results flagged for a closer look

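Probe sets that carry several symbols were outside the comparison of genes, and some with a TRIM symbol were higher in the EC-70124 arrays than in the control arrays. They cannot be assigned to 1 gene. Some of the 22 shared probe sets with a TRIM symbol repeat each other's values in every array, which leaves 17 distinct ones. Of these 5 passed the threshold in a limma fit over all 33252 probe sets, of which 22.1% were called in either direction.

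Both probe sets of KCNRG and TRIM13, which overlap on the genome, were higher. The brighter one read 1145.5, 1082 and 987 in the EC-70124 arrays and 529, 583 and 577 in the control arrays, a log2 fold change of 0.93 (limma adjusted p = 0.00056). The dimmer one read 510.44, 526 and 491 in the EC-70124 arrays and 267, 269 and 269.71 in the control arrays, a log2 fold change of 0.92 (limma adjusted p = 0.000204). TRIM13, a ligase of the endoplasmic reticulum, has no probe set of its own.

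The probe set of TRIM39 and the read-through gene TRIM39-RPP21, present 3 times with identical values, read 1443, 1495 and 1437 in the EC-70124 arrays and 838, 948 and 814 in the control arrays, a log2 fold change of 0.75 (limma adjusted p = 0.000915). That of TRIM16L and TRIM16 had a log2 fold change of 0.62 (limma adjusted p = 0.00116). The probe set of TRIM6, TRIM34 and their read-through gene ran the other way, at 497, 472 and 366 in the EC-70124 arrays and 627, 682 and 634 in the control arrays (-0.55, limma adjusted p = 0.0208). With 3 arrays a group, single arrays were not tested as outliers.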

How the results depend on the processing

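Under the 15 alternatives the count of rises, 14, was 13 to 15 when single arrays were left out, 17 without the dimmest 30% of genes (42.5% of the 40 TRIM genes left, against 26.7% of all genes left), 16 with an intensity trend and robust settings, 15 with an offset of 50, 10 with the methods' t-test and 1 (TRIM61) with a fold threshold of 1.5. The count of falls, 4, was 2 to 5 without single arrays, 5 after quantile normalisation or cyclic loess, 3 without the dimmest genes and 0 with the fold threshold. With that t-test it was 1, TRIM46, and 0 of the 4 falls kept their call. The median log2 fold change of the TRIM genes, 0.062, was 0.017 after quantile normalisation, 0.037 after cyclic loess, 0.13 without the dimmest 30% of genes, and 0.0042 to 0.10 without single arrays. Of the 18 called genes 9 kept their call under every alternative other than the fold threshold. The direction reversed only for genes that were not called, TRIM28 (-0.11 to 0.042 without single arrays, among them 0.024 and 0.0010) and TRIM22 (-0.017 to 0.12). TRIM46 was added as a fall and TRIM33 as a rise by several settings. Over all genes 3631 rose and 2722 fell, against 3112 and 3527 after quantile normalisation, 1962 and 1280 with the t-test and 435 and 163 with the fold threshold. The labels do not say whether the replicate numbers pair the arrays. Correlations of same-numbered deviations (0.13, -0.02 and 0.14) lay among those of differently numbered ones (-0.22 to 0.15). So few correlations cannot decide whether the arrays are paired. With the replicate number as a block 14 TRIM genes rose and 3 fell, TRIM48 having lost its call (limma adjusted p = 0.0559). The causes of these differences were not tested. Signal over background is not part of the table, which limits the reading of dim genes such as TRIM22, TRIM42 and TRIM48.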
